A study of Mus musculus with 16 samples.

Results

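Heat shock proteins of the cytosol were examined in sorted cells of the mouse olfactory mucosa after exposure to cigarette smoke. The set was defined by name as Hspa1a, Hspa1b, Dnajb1, Hsph1, Hspa8, Hsp90aa1 and Hspb1, and each gene was read from its annotated probe set with the highest mean over the 16 arrays. Of these 7 genes, 6 were matched to a probe set, out of 19505 genes measured, and Hspa8 was not analysed here. Each of the 6 had 1 probe set.

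The animals were S100a5-tauGFP mice of both sexes, 7 to 12 weeks old. In this reporter line green fluorescent protein (GFP) follows S100a5, which encodes a calcium-binding protein of olfactory sensory neurons and is driven by odour stimulation. All 24 mice sat singly in clean air chambers for 40 h, and from 26 h on they received pulses of 10 s every 20 min, of cigarette smoke odour for the smoke groups and of filtered air for the vehicle groups. Each group of 3 mice was pooled, which gave 4 smoke pools and 4 vehicle pools. The dissected mucosa of each pool was dissociated, its GFP+ and GFP- cells were separated by flow cytometry, and each fraction went on its own Clariom S array. The 4 groups of 4 arrays are thus smoke GFP+, vehicle GFP+, smoke GFP- and vehicle GFP-, all from mice with the reporter. The design text names another odour, bourgeonal, but cigarette smoke stands in the title and on every sample, and the sample labels were used.

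Cytosolic heat shock proteins are chaperones that bind unfolded proteins and help them refold. Hspa1a and Hspa1b encode the stress-inducible HSP70, Hspa8 its constitutive relative, Dnajb1 an HSP40 co-chaperone that brings clients to HSP70, and Hsph1 the HSP110 that exchanges its nucleotide. Hsp90aa1 encodes the stress-inducible HSP90 of the cytosol, which matures signalling proteins, and Hspb1 a small heat shock protein that holds unfolded clients. When proteins misfold, heat shock factor 1 is released from chaperones, forms trimers and binds heat shock elements, which are alternating inverted repeats of GAA spaced by a pair of bases. Enzymatic dissociation and sorting are themselves known to induce heat shock and immediate early genes in many tissues.

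The upstream sequences are shown because the genes they belong to parted in the sort described below, Hspa1a and Hspa1b being lower and Hsph1 higher in GFP+ cells of vehicle pools. RefSeq promoter windows (GRCm38.p6), from 250 bases before to 50 bases after the annotated start, were at hand for 5 of the members, all but Hspa8 and Hsp90aa1. They are printed 5′ to 3′ on the gene's strand, with heat shock element pairs (GAANNTTC or TTCNNGAA) in capitals. The windows of Hspa1a (chr17:34972107-34972406, minus strand) and Hspa1b (chr17:34959189-34959488, minus strand) were identical at 296 of 300 bases, with the substitutions C44T, T47C, T249G and C276T from Hspa1a to Hspa1b, counted from 1 at the 5′ end of the window. The Hsph1 window, the first of 2 listed for that gene, lies at chr5:149636287-149636586, minus strand.
Hspa1a: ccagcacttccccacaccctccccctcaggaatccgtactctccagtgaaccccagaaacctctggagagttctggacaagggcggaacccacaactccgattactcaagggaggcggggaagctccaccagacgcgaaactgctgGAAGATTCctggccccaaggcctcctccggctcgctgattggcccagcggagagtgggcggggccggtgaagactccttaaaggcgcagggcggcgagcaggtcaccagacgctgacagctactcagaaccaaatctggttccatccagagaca
Hspa1b: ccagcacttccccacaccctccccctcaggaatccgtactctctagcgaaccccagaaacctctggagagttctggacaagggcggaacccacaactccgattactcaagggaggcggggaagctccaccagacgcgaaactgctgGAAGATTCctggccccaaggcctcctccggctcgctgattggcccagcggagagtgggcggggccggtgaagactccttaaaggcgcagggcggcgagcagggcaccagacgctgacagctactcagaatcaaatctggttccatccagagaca
Hsph1: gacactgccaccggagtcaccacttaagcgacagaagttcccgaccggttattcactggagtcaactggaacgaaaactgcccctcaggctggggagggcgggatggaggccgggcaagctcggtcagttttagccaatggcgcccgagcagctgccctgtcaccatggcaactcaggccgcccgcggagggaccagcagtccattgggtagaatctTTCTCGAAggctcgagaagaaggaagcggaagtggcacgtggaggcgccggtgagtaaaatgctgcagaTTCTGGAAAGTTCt
Hspa1a and Hspa1b each held 1 GAANNTTC, beginning 104 bases before the start. Hspb1 held 2 of them, 117 and 97 bases before its start, and none of the searched letters stood in the Dnajb1 windows. Hsph1 had a TTCNNGAA 33 bases before its start and a triple repeat 36 bases after it. The triple was searched on both strands as GAANNTTC followed, after any pair of bases, by another GAA, and the match in Hsph1 reads so on the opposite strand. The triple contains both pair motifs, and each pair motif reads the same on either strand. Of the 5 member genes, 4 held GAANNTTC, 1 held TTCNNGAA and 1 held the triple in a window, against 9.04%, 9.60% and 0.662% of 27025 mouse genes (7.86%, 8.52% and 0.603% of their 32851 windows). These matches describe the letters of the windows and are no evidence of binding. Whether they bear on the sort was not tested.

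Values are deposited log2 array values, and a difference of 1 on that scale reads as a doubling. Group means are given with their SD (n = 4 arrays). All 16 values of Hsp90aa1 exceeded 16, the most a 16-bit scanner can record on this scale, so processing before deposit may have widened differences, and every fold given carries that limit. The sort was checked with S100a5, which was higher in GFP+ than in GFP- cells by 1.15 in smoke pools (adjusted p = 6.45e-06) and by 1.21 in vehicle pools (adjusted p = 2.88e-06, limma). Omp, which marks all mature olfactory sensory neurons, differed by 0.12 (adjusted p = 0.288) and 0.10 (adjusted p = 0.370), but it exceeded 16 on all 16 arrays, as S100a5 did on all GFP+ arrays. Of 10 mature neuron markers, 2 rose in GFP+ cells of smoke pools and 5 in those of vehicle pools, and 0 fell. Of all genes, 18.3% rose in smoke pools and 24.2% in vehicle pools. Mature neuron markers averaged 17.28 to 17.34 in GFP+ and 16.99 to 17.18 in GFP- arrays, so both fractions held mature neurons at high level. The p-values measure the spread between pools of 3 mice.

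**Figure D1:**
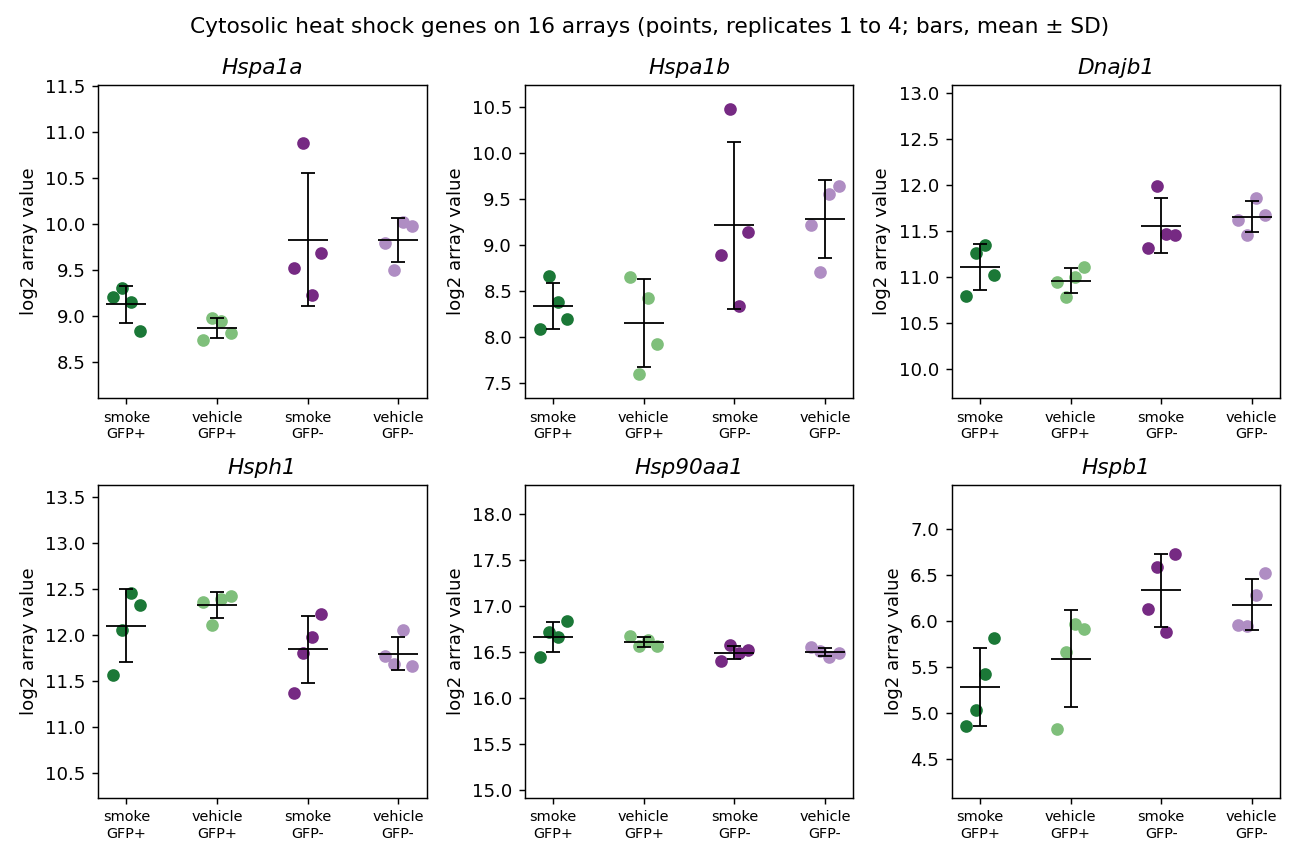
Deposited log2 value (vertical axes, 1 panel per gene) of the 6 measured heat shock genes in the 4 groups, with smoke left of vehicle within GFP+ and within GFP- cells. Points are single arrays and bars are group means with their SD (n = 4). Hspa1a, Hspa1b, Dnajb1 and Hspb1 have lower means in GFP+ cells of either exposure, and Hsph1 and Hsp90aa1 higher ones, while smoke and vehicle arrays overlap in every panel.

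The inducible HSP70 genes had the widest spread of the members in smoke GFP- cells. Hspa1a read 9.21, 9.30, 9.16 and 8.85 in smoke GFP+ arrays (mean 9.13 ± 0.20), against 8.75, 8.98, 8.95 and 8.82 in vehicle GFP+ arrays (8.87 ± 0.11). Its GFP- values were 9.53, 10.88, 9.23 and 9.69 after smoke (9.83 ± 0.72), against 9.80, 9.50, 10.03 and 9.98 after vehicle (9.83 ± 0.24). The smoke and vehicle arrays overlapped in both fractions, and the highest value of all was that of smoke pool 2 in GFP- cells. Hspa1b, the neighbouring copy of the gene, read 8.09, 8.67, 8.39 and 8.20 in smoke GFP+ arrays (8.33 ± 0.25), against 8.65, 7.60, 8.42 and 7.92 in vehicle GFP+ arrays (8.15 ± 0.48). In the GFP- arrays it read 8.89, 10.48, 8.34 and 9.14 after smoke (9.21 ± 0.91), against 9.22, 8.71, 9.56 and 9.64 after vehicle (9.28 ± 0.42). Smoke pool 2 again gave the highest value and smoke pool 3 the lowest of the GFP- cells. Hspa1a (chr17:34969359-34972156) and Hspa1b (chr17:34956429-34959238) are near-identical copies, so signal shared between their probe sets cannot be told apart here.

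The co-chaperones of HSP70 differed from each other in how they stood in the sort. Dnajb1 (chr8:83608175-83612653) read 10.79, 11.26, 11.35 and 11.02 in smoke GFP+ arrays (11.1 ± 0.25), against 10.95, 10.78, 11.00 and 11.11 in vehicle GFP+ arrays (10.96 ± 0.14). Its GFP- values were 11.32, 11.99, 11.46 and 11.45 after smoke (11.56 ± 0.30), against 11.62, 11.46, 11.86 and 11.67 after vehicle (11.65 ± 0.17). Its levels were thus higher in GFP- cells, with smoke pool 2 highest again. Hsph1 (chr5:149616843-149636498) read 11.56, 12.05, 12.46 and 12.33 in smoke GFP+ arrays (12.1 ± 0.40), against 12.36, 12.11, 12.39 and 12.42 in vehicle GFP+ arrays (12.32 ± 0.14). The GFP- arrays read 11.37, 11.80, 11.98 and 12.23 after smoke (11.85 ± 0.37), against 11.78, 11.69, 12.05 and 11.66 after vehicle (11.79 ± 0.18). Its lowest value in each fraction came from smoke pool 1.

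Hsp90aa1 (chr12:110691036-110696395) varied least. It read 16.44, 16.72, 16.66 and 16.83 in smoke GFP+ arrays (16.66 ± 0.16), against 16.67, 16.56, 16.63 and 16.57 in vehicle GFP+ arrays (16.61 ± 0.051). Among GFP- cells it read 16.40, 16.57, 16.49 and 16.52 after smoke (16.49 ± 0.073), against 16.55, 16.51, 16.44 and 16.49 after vehicle (16.50 ± 0.045). All 16 arrays lay within 16.40 to 16.83, and near the scanner's ceiling an array may record less of a difference than there is. Hspb1 (chr5:135887919-135889563) was the dimmest member. It read 4.86, 5.04, 5.43 and 5.82 in smoke GFP+ arrays (5.28 ± 0.43), against 4.83, 5.67, 5.97 and 5.91 in vehicle GFP+ arrays (5.59 ± 0.52). In the GFP- arrays it read 6.14, 6.59, 5.88 and 6.73 after smoke (6.34 ± 0.39), against 5.96, 5.94, 6.28 and 6.53 after vehicle (6.18 ± 0.28). On 12 of the 16 arrays it lay at or below the 95th percentile of the vomeronasal receptors, genes of another organ that serve as a measure of background (6.41 to 6.78 in GFP+ and 6.14 to 6.54 in GFP- arrays, a yardstick picked once the values were known). A difference of Hspb1 is therefore one between values near background.

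The first comparison asks whether smoke changed the chaperones of either fraction, and no change of a member was found. In GFP+ cells 0 of the 6 members passed an adjusted p of 0.05 in limma, where 0.108% of all genes did, and no member had groups that did not overlap, against 2.99% of all genes. The HSP70 genes differed by 0.26 (Hspa1a, SE 0.25, 95% interval -0.28 to 0.79) and 0.19 (Hspa1b, SE 0.35, -0.56 to 0.94), and Dnajb1 by 0.15 (SE 0.16, -0.18 to 0.48). Hsp90aa1 differed by 0.06 (SE 0.097, -0.15 to 0.26). Hsph1 was at -0.22 (SE 0.19, -0.63 to 0.19) and Hspb1 at -0.31 (SE 0.26, -0.87 to 0.25). Each adjusted p was 0.999. The median difference of the members was 0.10, and that of all genes -0.004.

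In GFP- cells each difference was smaller in size than in GFP+ cells, and the test of that difference is given below. Again 0 of 6 members passed, against 0.128% of all genes, and 0 of 6 had groups that did not overlap, against 2.73%. Hspa1a differed by 0.01 (95% interval -0.53 to 0.54), Hspa1b by -0.07 (-0.82 to 0.68) and Dnajb1 by -0.10 (-0.43 to 0.23). Hsph1 differed by 0.05 (-0.36 to 0.46), Hsp90aa1 by -0.003 (-0.21 to 0.20) and Hspb1 by 0.16 (-0.40 to 0.72). The adjusted p-values of limma ran from 0.964 to 0.999, and the median of the members was 0.001 against 0.011 for all genes. At an unadjusted p below 0.05, 0 of the 12 member comparisons passed, while 936 genes in GFP+ and 1115 in GFP- cells did.

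Exact permutation tests over the arrays, two-sided, gave p from 0.0857 (Hspa1a in GFP+ cells) to 1 (Hspa1a in GFP- cells), where 4 against 4 arrays allow no p below 0.0286. With the fractions of a pool averaged, exact p ran from 0.714 to 0.914. For Dnajb1 and Hsph1 a change of 1 or more on the log2 scale lay outside the 95% interval in each fraction. The same held for Hspa1a and Hspa1b in GFP+ cells, and changes within those intervals are not excluded. The limma intervals take 1 spread per gene over the 4 groups. In GFP- cells Hspa1a and Hspa1b spread wider after smoke (SD 0.72 and 0.91) than after vehicle (0.24 and 0.42). Their intervals there may be too narrow and are not read as such a bound. For Hsp90aa1, above the scanner's ceiling, and Hspb1, near background, the intervals set no such bound.

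**Figure D2:**
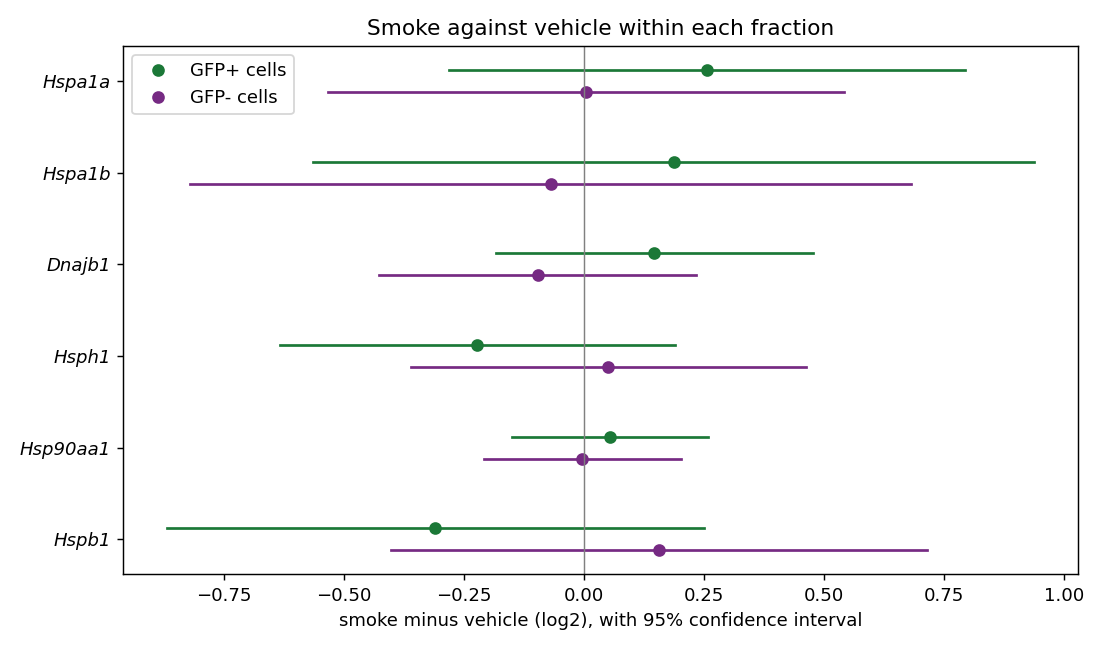
Difference of smoke from vehicle on the log2 scale (horizontal axis) for each heat shock gene in GFP+ and GFP- cells, with its 95% interval from limma. All 12 intervals include 0, and the widest belong to Hspa1b.

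The second comparison sets the fractions of the same pools against each other. In smoke pools Hspa1a and Dnajb1 fell in GFP+ relative to GFP- cells, at -0.70 (SE 0.25, 1.63-fold lower, adjusted p = 0.0433) and -0.45 (SE 0.16, 1.37-fold lower, adjusted p = 0.0354, limma). Hspb1 fell by 1.05 (SE 0.26, adjusted p = 0.00596), near background as stated above. Hspa1b was at -0.88 (SE 0.35, adjusted p = 0.0684), and with the pool as a block it passed (adjusted p = 0.0274). Hsph1 was at 0.26 (SE 0.19, adjusted p = 0.330) and Hsp90aa1 at 0.17 (SE 0.097, adjusted p = 0.190). In all 0 rose and 3 of 6 fell, where 18.3% of all genes rose and 14.4% fell (32.7% in either direction). Only Hspb1 had fractions that did not overlap in smoke pools, 1 of 6 against 29.8% of all genes.

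In vehicle pools the direction was the same for each gene, with larger differences for the HSP70 genes that the test between exposures given below did not call. Hspa1a fell by 0.95 (SE 0.25, 1.94-fold lower, adjusted p = 0.00695), Hspa1b fell by 1.13 (SE 0.35, 2.19-fold lower, adjusted p = 0.0181) and Dnajb1 fell by 0.69 (SE 0.16, 1.62-fold lower, adjusted p = 0.00209, limma). Hsph1 rose by 0.53 (SE 0.19, 1.44-fold higher, adjusted p = 0.0400). Hsp90aa1 was at 0.11 (SE 0.097, adjusted p = 0.378). Hspb1 was at -0.59 (SE 0.26, adjusted p = 0.0893), and with the pool as a block it passed (adjusted p = 0.0333). In all 1 of 6 rose and 3 fell, where 24.2% of all genes rose and 15.4% fell (39.6% in either direction). The fractions did not overlap for 5 of 6 members, all but Hspb1, against 39% of all genes. In bulk samples such as these, fewer cells of a type and less RNA per cell cannot be told apart.

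Some of these calls lay close to the threshold, and others did not. Leaving out each of the 8 arrays of a comparison in turn, Hspa1a and Dnajb1 in vehicle pools and Hspb1 in smoke pools kept their calls 8 of 8 times. The call of Hspa1a in smoke pools was lost 6 of 8 times (adjusted p = 0.0522 to 0.111), and that of Dnajb1 there 4 of 8 times (adjusted p = 0.0515 to 0.126). Without the GFP- array of smoke pool 2 the difference itself moved, to -0.35 for Hspa1a (adjusted p = 0.103) and to -0.31 for Dnajb1. In vehicle pools the call of Hsph1 was lost 6 of 8 times (adjusted p = 0.0720 to 0.0950), with differences of 0.48 to 0.61 over the 8 fits, and that of Hspa1b 3 of 8 times (adjusted p = 0.0502 to 0.0603, limma). Without smoke pools 2 and 4, whose GFP+ arrays had high sustentacular markers (11.7 and 12.1, against 10.9 to 11.4 in the other GFP+ arrays), Hspa1a was at -0.20 (adjusted p = 0.505) and Dnajb1 at -0.32 (adjusted p = 0.293), and 0 members were called in smoke pools.

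Read within pools, the direction of the sort was more even. The GFP+ value of Hspa1a lay below the GFP- value in 8 of 8 pools, with differences of -1.58 to -0.08 (mean -0.83, SD 0.49), with an exact sign-flip p of 0.00781, the smallest that 8 pools allow. Dnajb1 was lower in 8 of 8 pools (mean -0.57, SD 0.23) and so was Hspb1 (mean -0.82, SD 0.47), each with the same exact p. Hspa1b was lower in 7 of 8 pools (mean -1.01, SD 0.60, exact p = 0.0156), smoke pool 3 being the exception at 0.04. Hsph1 was higher in 8 of 8 pools (mean 0.39, SD 0.22) and so was Hsp90aa1 (mean 0.14, SD 0.088), each with the smallest exact p. Thus 5 of 6 members had all 8 pools on the same side, 3 lower and 2 higher, where 36.2% of all genes did (14.7% lower and 21.5% higher).

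**Figure D3:**
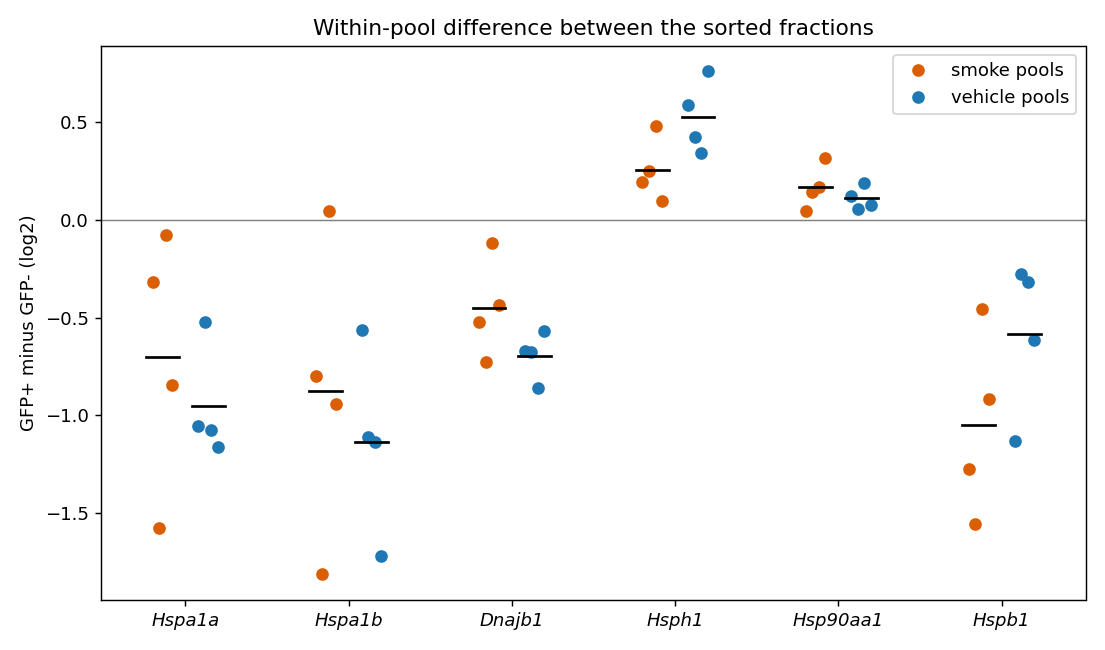
GFP+ minus GFP- value of each pool on the log2 scale (vertical axis) for the 6 heat shock genes, smoke pools left of vehicle pools, with bars for the mean of the 4 pools. Hspa1a, Dnajb1 and Hspb1 lie below 0 in 8 of 8 pools, Hsph1 and Hsp90aa1 above 0 in 8 of 8, and Hspa1b below 0 in 7 of 8.

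The sort was also read relative to all genes, since the GFP+ arrays had lower medians (7.87 to 7.96, against 8.19 to 8.29 in GFP- arrays). The median gene differed by 0.15 in smoke and 0.17 in vehicle pools. Relative to it, Hspa1a stood at -0.85 and -1.12, Hspa1b at -1.03 and -1.30, Dnajb1 at -0.60 and -0.86, and Hspb1 at -1.20 and -0.75 in smoke and in vehicle pools. Hsph1 stood at 0.11 and 0.36, and its 0.11 in smoke pools is smaller than the SE of its sort difference (0.19). Hsp90aa1 stood at 0.02 and -0.06, each smaller in size than the SE of its sort difference (0.097). Hsp90aa1 in either exposure and Hsph1 in smoke pools thus had no measured direction relative to the median gene. Centring each array on its own median moves the median gene by 0.32 in smoke and 0.34 in vehicle pools, and the share of called genes that rose to 85.3% against 56.1% as deposited in smoke pools, and to 85.0% against 61.2% in vehicle pools. No member turned direction in the sort under that centring or under quantile normalization. After centring Hsp90aa1 and Hsph1 rose in smoke pools (0.49, adjusted p = 4.83e-04, and 0.58, adjusted p = 0.0118), while Hspa1a and Dnajb1 were no longer called there (-0.38, adjusted p = 0.180, and -0.13, adjusted p = 0.435). In vehicle pools centring added a call for Hsp90aa1 (0.45, adjusted p = 6.77e-04) and ended that of Hspa1b (-0.79, adjusted p = 0.0512, limma).

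Whether smoke altered the sort itself was tested as the difference between the exposures, and 0 of 6 members passed, against 0.174% of all genes. The differences ran from -0.47 (Hspb1) to 0.26 (Hspa1b), with adjusted p from 0.925 to 0.979 and 0 of 6 members at an unadjusted p below 0.05. A call in vehicle pools that is missing in smoke pools, as for Hsph1 or Hspa1b, is therefore no measured difference between the exposures.

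Other genes of the heat shock response are given next, with the share of all genes called in the sort beside each count. Of 18 further chaperone genes induced by heat shock factor 1, 14 were measured, and Hsp90ab1 was among those not analysed here. In smoke pools 3 rose and 1 fell in GFP+ cells, and in vehicle pools 3 rose and 1 fell. That is 4 of 14 each time, a smaller share than the 32.7% and 39.6% of all genes called. The medians were 0.22 and 0.10, against 0.15 and 0.17 for all genes. Centring each array on its median gave 12 and 11 calls among the 14. Dnajb4, an HSP40, rose by 0.41 (adjusted p = 0.00481) and 0.47 (adjusted p = 0.00143) in smoke and in vehicle pools, and Hspa4l, an HSP110 relative of Hsph1, by 0.40 (adjusted p = 0.00981) and 0.65 (adjusted p = 1.60e-04, limma). Cacybp rose by 0.47 in smoke pools (adjusted p = 0.0174). Bag3, an HSP70 co-chaperone that clears aggregates, rose by 0.59 in vehicle pools (adjusted p = 0.0272). The single gene that fell was Serpinh1, the collagen chaperone, in smoke pools (adjusted p = 0.0393) and Hspb8, a small heat shock protein, in vehicle pools (adjusted p = 0.00189, limma). Each lay at or below the vomeronasal level on 8 of 8 arrays of its comparison, so no difference is given for them.

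Of 20 regulators, co-chaperones and further heat shock proteins, 18 were measured, and Hsf1 and Stub1 were not analysed here. In smoke pools 6 rose and 2 fell, and in vehicle pools 6 rose and 1 fell, where 18.3% of all genes rose and 14.4% fell in smoke pools and 24.2% rose and 15.4% fell in vehicle pools. The 6 that rose in vehicle pools include Hspa1l, which lay at or below the vomeronasal level on all 4 vehicle arrays of each fraction. The medians of the list were 0.22 and 0.26, against 0.15 and 0.17 for all genes, and centring gave 14 and 17 calls among the 18. Hsf2, a second heat shock factor, rose by 0.44 (adjusted p = 0.00326) and 0.31 (adjusted p = 0.0244) in smoke and in vehicle pools, and Dnaja4, an HSP40, by 0.44 (adjusted p = 0.00930) and 0.51 (adjusted p = 0.00288). Dnaja2 rose by 0.58 in smoke pools (adjusted p = 0.0102) and by 0.44 in vehicle pools (adjusted p = 0.0374). Cdc37, which delivers kinases to HSP90, rose by 0.44 in vehicle pools (adjusted p = 0.00635). Fkbp5, an HSP90 co-chaperone that glucocorticoids induce, fell, at -1.67 (adjusted p = 1.51e-06) and -1.42 (adjusted p = 8.01e-06, limma).

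Of 13 chaperones of the endoplasmic reticulum and mitochondria, 12 were measured, of which 2 rose in smoke pools and 4 in vehicle pools, and 0 fell in either, where 18.3% and 24.2% of all genes rose. Their medians were 0.13 and 0.09, against 0.15 and 0.17 for all genes, and centring gave 11 and 9 calls among the 12. Dnajb11, a co-chaperone of the endoplasmic reticulum, rose by 0.46 (adjusted p = 7.30e-04) and 0.30 (adjusted p = 0.0135), and Dnaja3, its mitochondrial counterpart, by 0.58 (adjusted p = 0.00188) and 0.46 (adjusted p = 0.00838) in smoke and in vehicle pools. In vehicle pools Dnajb9 rose by 0.39 (adjusted p = 0.0400) and Hyou1, an HSP70 relative of the endoplasmic reticulum, by 0.25 (adjusted p = 0.0445, limma).

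Most genes of a list of early genes associated with dissociation were lower in GFP+ cells, as were the HSP70 genes. All 28 genes of that list were measured. In GFP+ cells 23 fell in smoke pools and 23 in vehicle pools, where 14.4% and 15.4% of all genes fell. The 5 not called in either exposure were Jund, Mt1, Mt2, Maff and Cebpb. The medians of the list were -2.06 and -2.37. Fos stood at -4.03 (adjusted p = 5.94e-11) and -4.36 (adjusted p = 1.86e-11) in smoke and in vehicle pools, with 2 and 4 of its 4 GFP- arrays above 16, and Egr1 was at -3.82 (adjusted p = 6.62e-12) and -4.11 (adjusted p = 3.72e-12, limma). Nr4a1 stood at -4.77 and -4.60 and Btg2 at -4.47 and -5.06, all lower in GFP+ cells. The mean of the list per array ran from 9.88 to 10.1 in GFP+ and from 12.0 to 12.5 in GFP- cells, without overlap. Fos and Egr1 also report firing in neurons and activation in immune cells, so the list marks no single source.

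Markers of several other cell types were lower in GFP+ cells. Of all genes, 18.3% rose and 14.4% fell in smoke pools, and 24.2% rose and 15.4% fell in vehicle pools. All 11 measured immune markers fell in GFP+ cells of either exposure (list mean 7.91 to 8.49 in GFP+ and 13.0 to 14.4 in GFP- arrays), as did all 4 globose basal and cycling markers (5.62 to 6.26, against 8.44 to 9.96) and all 5 microvillar and ionocyte markers (6.80 to 7.29, against 10.1 to 10.6). Of 5 immature neuron markers 3 fell in either exposure (11.0 to 11.4 in GFP+, against 12.8 to 13.2 in GFP- arrays). Horizontal basal, sustentacular and gland or respiratory markers did not move one way in smoke pools, where 1 rose and 1 fell in each list (of 5, 9 and 5 measured), and in vehicle pools 0, 0 and 1 rose and 1, 5 and 2 fell. Of 5 olfactory ensheathing markers 0 rose and 1 fell in either exposure. Of 8 endothelial and stromal markers 2 fell in smoke and 3 in vehicle pools, and 0 rose in either. The horizontal basal list averaged 5.31 to 5.59 in GFP+ and 5.32 to 5.74 in GFP- arrays, below the vomeronasal level. The ensheathing list (6.01 to 6.44 and 6.01 to 6.56) averaged near that level. So did the endothelial and stromal list (5.95 to 6.33 and 6.20 to 7.07). The counts of these lists therefore say little of whether those cell types moved. The immune, globose basal, microvillar and immature neuron lists have fractions that do not overlap, so their level and the sort cannot be told apart in these arrays. With the immune list as a covariate 0 members were called in either exposure, and of all genes 3 in each. The part of dissociation and of other cell types in the lower Hspa1a, Hspa1b and Dnajb1 of GFP+ cells was not tested.

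**Figure D4:**
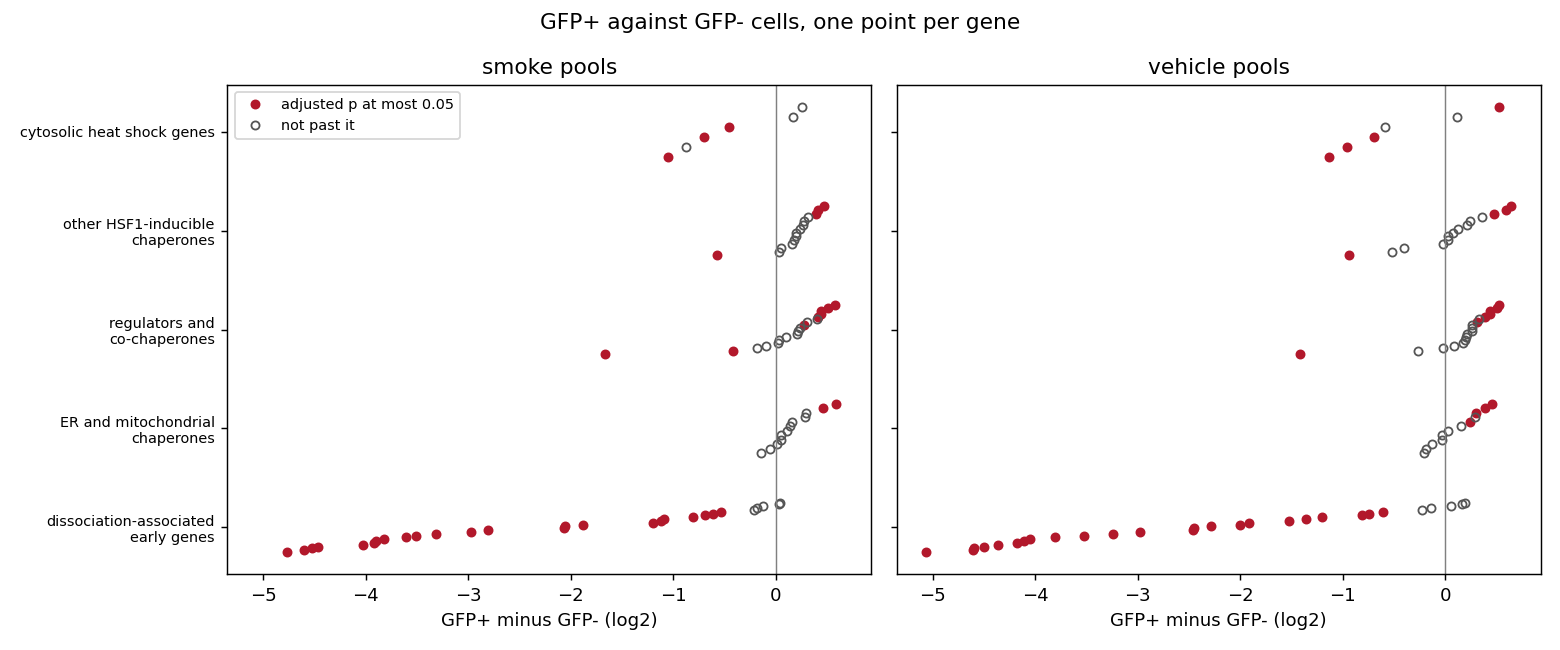
GFP+ minus GFP- difference on the log2 scale (horizontal axis) of single genes, shown as points, for the heat shock genes and the other gene lists, with smoke pools left and vehicle pools right. Filled points have an adjusted p of at most 0.05, and height within a list only separates the points. The early genes reach -4.77 and -5.06, while most genes of the 3 other chaperone lists lie near 0.

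None of these lists had a called gene in the smoke comparisons, in either fraction. The smallest p among the inducible chaperones belonged in GFP+ cells to Hspb8 (at or below the vomeronasal level on 8 of 8 arrays, adjusted p = 0.291) and in GFP- cells to Cryab, a small heat shock protein (-0.40, adjusted p = 0.799). Among the regulators they belonged to Bag1 (-0.23 in GFP+, adjusted p = 0.999) and Hspa1l (at or below that level on 8 of 8 GFP- arrays, adjusted p = 0.840). Among the chaperones of organelles they belonged to Canx (0.15 in GFP+, adjusted p = 0.999) and Dnajc3 (-0.23 in GFP-, adjusted p = 0.863), and among the early genes to Atf3 (0.47 in GFP+, adjusted p = 0.833) and Ier2 (-0.25 in GFP-, adjusted p = 0.786, limma). The early gene list averaged 9.89, 10.12, 9.91 and 10.03 in smoke GFP+ arrays, against 10.01, 10.09, 9.90 and 9.88 in vehicle GFP+ arrays. In GFP- cells it averaged 11.96, 12.48, 12.32 and 12.14 after smoke, against 12.25, 12.29, 12.32 and 12.49 after vehicle, so the exposures overlapped here too.

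Within the GFP- fraction the HSP70 genes varied together from pool to pool. Over the 8 GFP- arrays Hspa1a and Hspa1b had a Pearson r of 0.984 (exact permutation p = 4.96e-05, adjusted p = 0.00327 over 66 correlations) and a Spearman rho of 0.976 (exact permutation p = 3.97e-04, adjusted p = 0.0262). Without the 2 arrays farthest from the median of Hspa1a, r was 0.978. Signal shared between the probe sets of these near-identical copies cannot be told apart, which limits what their r shows. Hspa1a and Dnajb1 had r of 0.884 (exact permutation p = 0.00146, adjusted p = 0.0483) and rho of 0.786 (exact permutation p = 0.0279, adjusted p = 0.422), and r of 0.924 without the 2 farthest arrays. These 2 pairs were the only ones of the 66 to pass by r. In the GFP+ fraction Hspa1a and Hspa1b had r of 0.166 (exact permutation p = 0.690, adjusted p = 0.893) and rho of 0.119, over a range of Hspa1a that was much narrower there. The difference in r between the fractions was not tested.

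The early gene list followed Dnajb1 over the 8 GFP- arrays with r of 0.752 (exact permutation p = 0.0307, adjusted p = 0.495) and rho of 0.857 (exact permutation p = 0.0107, adjusted p = 0.338), which fails the correction. Its r was 0.564 with Hspa1a (exact permutation p = 0.154) and 0.542 with Hspa1b (exact permutation p = 0.164). In GFP+ cells its r with Hspa1a was 0.117. The pooled r over both fractions is not given, since the fractions form separate clusters.

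**Figure D5:**
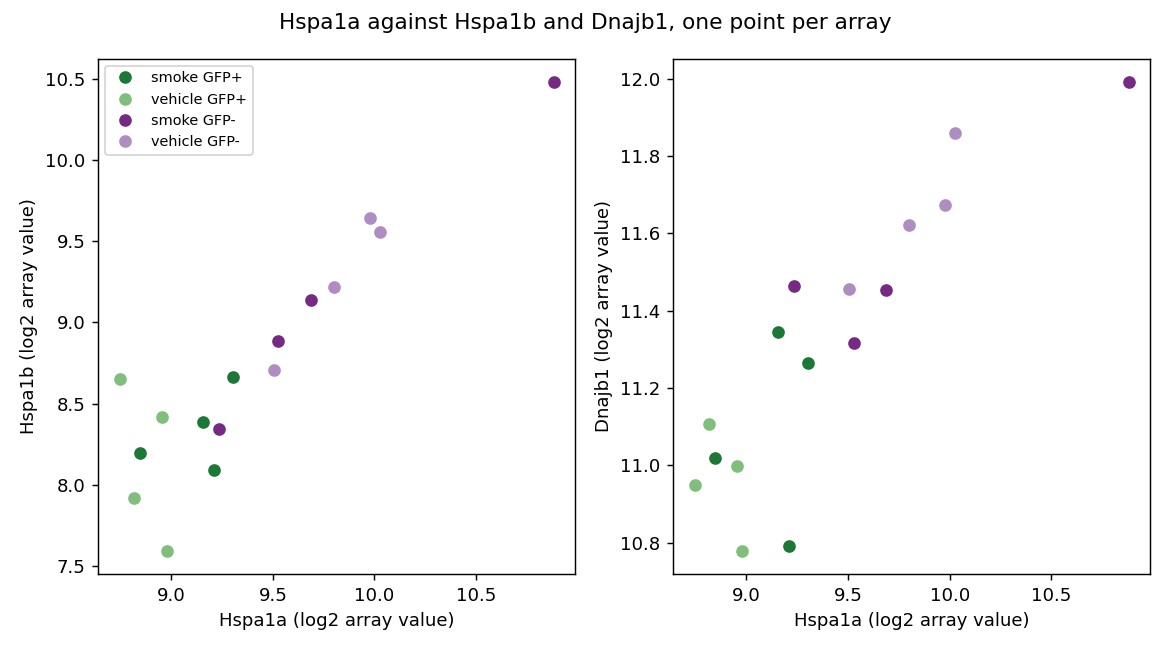
Hspa1b (left panel, vertical axis) and Dnajb1 (right panel, vertical axis) against Hspa1a (horizontal axes), all as deposited log2 values, with 1 point per array and the 4 groups in colours. In the left panel the 8 GFP- arrays lie along a line with smoke pool 2 at its top (Hspa1a 10.88, Hspa1b 10.48), and the 8 GFP+ arrays form a cloud.

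Around the 4 group means, the members shared part of their spread over the 16 arrays. The residuals of Hspa1a and Hspa1b had r of 0.828, those of Hspa1b and Dnajb1 0.738, and those of Hspa1a and Dnajb1 0.678. The r of Hspa1a and Hspa1b carries the limit of shared signal given above. Hsph1 went with Hsp90aa1 (0.586) and Dnajb1 (0.511) but had r of -0.074 with Hspa1a. Dnajb1 was the member whose residual lay closest to the mean of the others (r of 0.817), and Hsph1 the farthest (0.298). Outside the set, the genes whose residuals were most like the mean of the members were Rsrp1 (0.891), Gm10046 (0.873) and Hmgn3 (0.872), followed by Eepd1, Ugdh, Aifm1, Nhlrc2, Tra2b, Chfr and Ash2l (0.83 to 0.80). These are the highest of all genes by choice, so their r is a description, and the arrays share pools and scaling.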

How the data were processed

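Total RNA of sorted cells was hybridised to 16 arrays. The authors deposited log2 values made with Affymetrix Expression Console, per the submitters' processing notes, with a range of 2.29 to 18.6. Which version and algorithm made them is not given in the sources used here. Of 28846 probe sets, 19572 had 1 gene symbol, and the brightest probe set per symbol gave 19505 genes. From these values, linear models with 4 group means and 5 contrasts were fitted with limma 3.58.1 (lmFit, then eBayes) under R 4.3.3, with two-sided p adjusted by Benjamini-Hochberg over all genes and called at 0.05. Exact tests went through all arrangements in Python 3.11.15, with ranks from scipy 1.17.1, and figures used matplotlib 3.10.9. Arrays carry no read depth, and their number limits the precision. In simulated data over 19505 genes, a log2 difference of 1 was recovered for 73% of 100 genes for smoke in GFP+ and 76% in GFP- cells, and one of 0.5 for 18% and 22%. Those genes were drawn at random, with independent arrays and the same spread in every group. The shares are therefore not the power for the members, whose spread differed between groups.

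The labels pair the fractions of a pool, which come from the same mice; their residuals correlated with r of 0.045 to 0.22. Replicate numbers across exposures were not taken as pairs, as the labels tie them to nothing shared and not every pair correlated above 0.1. Members and gene lists were chosen with earlier results of these data known. Named genes were all members, S100a5, Omp and Fos, up to 4 called genes by smallest p from each list and comparison (otherwise the 1 with the smallest p), and the 10 genes most like the members. Alternatives were a replicate block, fits of only the groups compared, quantile normalization, centring on array medians, a filter on dim genes, an intensity trend, values above 16 set to 16, marker lists as covariates, leaving out smoke pools 2 and 4, the mean of all probe sets of a gene, and leaving out each array in turn.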

Additional observations from a re-analysis of the deposited data

How the results depend on the processing

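In the smoke comparisons and in the difference of the sort, 0 members were called under any alternative run. In smoke pools the 3 calls became 1 when only the groups compared were fitted, 0 with the immune list as a covariate and 0 without smoke pools 2 and 4; leaving out each array in turn gave 1 to 3 calls, with 1 call without the smoke GFP+ array of pool 1 or 4 or the GFP- array of pool 2. In vehicle pools the 4 calls became 2 under quantile normalization, 2 with the sustentacular list as a covariate and 0 with the immune list; leaving out each array gave 2 to 3, with 2 without the GFP- array of vehicle pool 4. With the replicate block, which pairs the fractions of a pool, 4 members were called in smoke pools and 5 in vehicle pools, Hspa1b (adjusted p = 0.0274) and Hspb1 (adjusted p = 0.0333) being added; in smoke against vehicle the block called 0 members. Same-numbered pools of the exposures had residual r of 0.077 to 0.198 in GFP+ and -0.084 to 0.177 in GFP- cells. Setting values above 16 to 16 gave no value for Hsp90aa1. The cause of these changes was not tested, beyond the smaller number of arrays where arrays were left out.

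Of 607 member values under alternatives, 28 reversed, 13 of them when an array was left out. Among calls, Dnajb1 reversed with the immune list as a covariate, to 0.82 in smoke pools (adjusted p = 0.815) and 0.64 in vehicle pools (adjusted p = 0.903), and no member was called in both directions. With the sustentacular list as a covariate, smoke against vehicle in GFP+ cells gave -0.013 for Hspa1b and -0.018 for Hsp90aa1, and in GFP- cells 0.017 for Hsp90aa1; Hspb1 in the sort of vehicle pools was 0.0063, and the difference of the sort of Hsp90aa1 was -0.035. Without smoke pools 2 and 4, Hsp90aa1 in GFP+ cells was -0.057, Hspa1a, Hsph1 and Hspb1 in GFP- cells were -0.45, -0.12 and -0.17, and the difference of the sort of Hsp90aa1 was -0.0025. In GFP- cells Hspa1a was -0.019 under quantile normalization, and Hsp90aa1 was 0.013 after centring and 0.0089 with the immune list. Leaving out each array gave, for smoke against vehicle in GFP- cells, -0.34 to 0.21 for Hspa1a, -0.49 to 0.22 for Hspa1b, -0.078 to 0.21 for Hsph1 and -0.029 to 0.029 for Hsp90aa1. In GFP+ cells Hsp90aa1 ran from -0.0022 to 0.13, and the difference of the sort of Hspa1b from -0.034 to 0.68. Single calls of the sort were lost elsewhere too: that of Hspa1a in smoke pools under 7 of 11 settings other than left-out arrays, of Dnajb1 under 4 and of Hspb1 under 2 of them, and in vehicle pools that of Hspa1a under 2, Hspa1b under 4, Dnajb1 under 1 and Hsph1 under 3. Hspa1b in smoke pools was called without the GFP- array of pool 3 (adjusted p = 0.0202).

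Over all genes, calls in the sort changed from 6373 to 14268 in smoke and from 7726 to 15086 in vehicle pools after centring, to 3 and 3 with the immune list, and to 3579 in smoke pools without pools 2 and 4. The 21 and 25 genes called after smoke in GFP+ and GFP- cells became 5 and 7 without smoke pools 2 and 4, 34 in GFP+ cells with an intensity trend, and 8 in GFP- cells when only those groups were fitted; leaving out each array gave 14 to 27 and 13 to 28. The 34 genes called in the difference of the sort became 19 with the sustentacular list and 9 without those pools. After centring, the inducible chaperones gave 12 and 11 calls of 14 in smoke and vehicle pools (4 and 4 as deposited), the regulators 14 and 17 of 18 (8 and 7) and the organelle chaperones 11 and 9 of 12 (2 and 4). Hspb1 near background and Hsp90aa1 above the scanner's ceiling limit what their differences show.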
